A study of Drosophila melanogaster with 30 samples.

Results

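Males of the fruit fly Drosophila melanogaster carrying the fruitless (fru) allele pair fru-440/fru-P14 were compared as whole pupae with males of the wild-type laboratory strain Canton S on 4 arrays, out of 30 arrays in the series. The arrays were chosen by their titles and strain labels. Both groups were collected as white prepupae between Zeitgeber time 1 and 4, aged for 48 h at 25 °C and frozen, which places them 48 h after puparium formation (APF). RNA of about 30 pupae went into each extract, so an array compares pools and not single animals. On each array cDNA of mutant pupae in 1 dye was hybridised together with cDNA of Canton S pupae in the other. The mutant was labelled with Cy5 in replicates 1 and 2 and with Cy3 in replicates 3 and 4. The series' design text describes the samples as biologically independent. The labels give the alleles but neither their lesions nor the genetic background in which they were kept. The allele pair and any difference in strain background therefore cannot be told apart. For comparison, the second whole-pupa experiment set w; fru-w12/fru-ChaM5 males of the same age against w; Berlin males on 4 arrays. Dissected central nervous systems (CNS), also 48 h APF and about 20 to an extract, were compared on 3 arrays for each allele pair. They set fru-440/fru-P14 again against Canton S and w; fru-w12/fru-ChaM5 again against w; Berlin.

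The fru gene has several promoters, and transcripts from its P1 promoter are spliced differently in males and females. In males they encode FRUM proteins, transcription factors of the BTB zinc finger family. FRUM is made mainly in subsets of neurons and sense organs, and its absence in males is known for lost or altered courtship. The labels call the mutants fru P1 males, and midway through metamorphosis the adult nervous system that uses FRUM is being built. A whole pupa holds muscle, epidermis, fat body and gonads beside the nervous system. In such a bulk sample fewer cells of a type and less RNA per cell cannot be told apart.

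Each value below is a deposited log2 ratio of the 2 channels, so 1 unit is a 2-fold difference. The labels do not state which sample a positive ratio favours. Positive and negative therefore name sides of the comparison, not higher or lower RNA in the mutant. Probes carry plate positions as their IDs, and the files do not pair them with genes. The probe for fru itself could not be looked up, and tissue markers could not be checked, since a ratio also holds no level. The rule for testing a probe was a value on at least 3 of the 4 arrays with at least 1 in each dye orientation, and 6394 of 15744 probes (40.6%) met it.

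The arrays gave values for 8631, 7429, 5729 and 6457 probes in replicates 1 to 4, and the number of arrays limits the precision. All 4 values were present for 4222 probes, 3 for 2172, 2 for 1571 and 1 for 1700, and 6079 had none. Among the probes with 3 values the missing one was most often on replicate 3 (971 probes) or replicate 4 (695 probes), against 236 and 270 probes for replicates 1 and 2. Ratios spread alike on the 4 arrays, with SDs (standard deviations) of 0.406 to 0.423 across probes and a median between -0.0157 and 0.0154. Probes just inside the rule, with 3 values, had a median absolute effect of 0.151, against 0.166 for the 755 just outside it, with 1 value in each orientation.

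Arrays of the same dye orientation resembled each other more than arrays of opposite orientation did. Across probes, Pearson's r was 0.59 between replicates 1 and 2 and 0.623 between replicates 3 and 4. Across the swap it was 0.199 and 0.235 for replicate 1 against replicates 3 and 4, and 0.374 and 0.405 for replicate 2 against the same arrays. These correlations are over 4771 to 6661 probes that share libraries and dyes, and describe the arrays only. Replicate 1 is labelled as a first scan, whereas the other 3 arrays were scanned after a rewash (scans 4, 3 and 4). The part of scan and wash in the results was not tested. The median absolute difference was 0.194 between replicates 1 and 2 and 0.187 between replicates 3 and 4, and the gap between the means of the orientations had a median of 0.244. A coefficient for dye orientation was therefore fitted beside the effect.

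**Figure D1:**
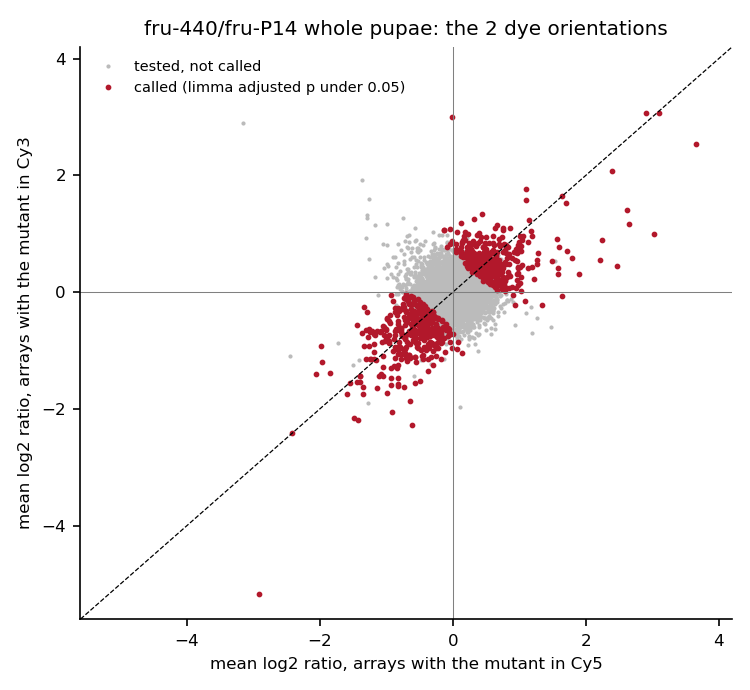
Mean deposited log2 ratio of each tested probe on the arrays with the mutant in Cy5 (x axis) and on those with the mutant in Cy3 (y axis). Red points are the 725 probes called by limma, grey points the other tested probes, and the dashed line marks equal values. Most red points lie in the quadrants where both orientations have the same sign, with 15 calls outside them.

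The first question was which transcripts differ between fru-440/fru-P14 and Canton S male pupae. Of the 6394 probes tested, 725 (11.3%) passed an adjusted p of 0.05 in limma, 358 (5.6%) on the positive and 367 (5.74%) on the negative side. The shifts were mostly small: the median absolute effect of a call was 0.533, or 1.45-fold, and 428 of the 725 were under 1.5-fold. A further 221 lay between 1.5-fold and 2-fold. Only 76 (1.19% of probes tested) passed 2-fold, of which 26 were positive and 50 negative. Beyond 4-fold stood 8 calls, of which 6 were positive and 2 negative. Over all tested probes the median absolute effect was 0.147.

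Most calls rested on arrays that shared a sign. All measured arrays shared a sign for 662 of the 725 probes. Among the 553 called with 4 values, 504 (91.1%) kept 1 sign, against 31.4% of all probes tested with 4 values. The call is made from these same values, so the shared sign describes the calls and is no separate support for them. Of the 76 calls past 2-fold, 73 kept 1 sign, and 48 had all 4 values. The gap between dye orientations exceeded the effect in 147 of the 725 calls and in 8 of the 76 past 2-fold. Of probes with 3 values 7.92% were called, and of those with 4 values 13.1%.

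The count of 725 depends on how the dye and the ratios are read and on single arrays. With every ratio read as Cy5 over Cy3, so that the arrays with the mutant in Cy3 change sign, 25 probes passed, 8 positive and 17 negative. In that reading the fitted effect is the dye coefficient of the main fit, so these are the probes whose dye coefficient passed. Without the dye coefficient 278 probes passed, all of them among the 725. Without replicate 1, 2 or 3 the counts were 455, 299 and 457, from 4458, 4492 and 5193 probes still tested, and without replicate 4 it was 578. The 76 calls past 2-fold became 65 without the dye coefficient and 48 without replicate 2.

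On the positive side the 10 probes with the largest effects, among called probes with 4 values of 1 sign, were followed individually. DAC032I05 had ratios of 3.63 and 3.67 with the mutant in Cy5 and 2.48 and 2.6 with the mutant in Cy3. All 4 arrays exceeded 4-fold, and the orientations did not overlap. Its effect was 3.10 ± 0.0842 (SE, n = 4 arrays, 8.55-fold), with a limma adjusted p of 2.56e-06. DAC016M16 was the most even of the 3 largest, at 2.85, 2.96, 2.99 and 3.15 on replicates 1 to 4. Its effect was 2.99 ± 0.0865 (SE, n = 4, 7.93-fold, limma adjusted p = 2.56e-06). DAC037E21 varied more, at 2.35, 3.86, 3.15 and 2.98, and the spread lay between replicates 1 and 2 and not between the orientations. Its effect was 3.08 ± 0.208 (SE, n = 4, 8.48-fold, limma adjusted p = 0.00029).

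For several of the others the size depended on the dye orientation. DAC004B03 stood at 2.71 and 2.53 with the mutant in Cy5 and at 1.27 and 1.56 with it in Cy3, which gave 2.02 ± 0.0932 (SE, n = 4, limma adjusted p = 4.77e-05). DAC026B13 stood at 2.75 and 2.56 against 0.886 and 1.44, with an effect of 1.91 ± 0.111 (SE, n = 4, limma adjusted p = 0.000114). DAC014E14 had 1.82 and 1.61 against 0.762 and 0.641, and DAC027G15 had 1.67 and 1.93 against 0.541 and 0.632. In these probes, and in DAC032I05, the gap between orientations was over 1 log2 unit, so their folds are less certain than their SEs, which do not hold that gap. The remaining positive probes did not show it. DAC038I19 had 1.78, 1.49, 1.58 and 1.73 on replicates 1 to 4, with an effect of 1.65 ± 0.0923 (SE, n = 4, 3.13-fold, limma adjusted p = 0.0001). DAC008M16 had 0.969, 1.32, 1.14 and 1.32, and DAC006I16 had 1.41, 0.784, 1.69 and 1.47.

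The largest shift of either sign was negative. DAC039E05 had ratios of -2.22, -3.61, -5.56 and -4.79 on replicates 1 to 4, all beyond 4-fold, with an effect of -4.05 ± 0.217 (SE, n = 4, 16.5-fold, limma adjusted p = 8.48e-05). Its orientations differed by 2.26, the widest gap among the 20 probes, so its size is the least certain of them. DAC019F21 was far more even, at -2.41, -2.42, -2.53 and -2.28. Its effect was -2.41 ± 0.0886 (SE, n = 4, 5.31-fold, limma adjusted p = 1.09e-05), and its orientations differed by only 0.0104.

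Below these the negative probes formed a narrow band. DAC037M01 stood at -1.43, -1.55, -2.26 and -2.04 and had an effect of -1.82 ± 0.0886 (SE, n = 4, limma adjusted p = 5.69e-05). DAC040P19 stood at -1.53, -1.64, -1.8 and -1.7 and had an effect of -1.67 ± 0.0849 (SE, n = 4, limma adjusted p = 6.71e-05). DAC020C07 closed the list at -1.39, -1.32, -1.68 and -1.57, with an effect of -1.49 ± 0.0843 (SE, n = 4, limma adjusted p = 0.0001). These 3 probes kept all their arrays past 2-fold, on the same side. The other 5 were less even, although DAC014P22 and DAC034L09 also had all their arrays past 2-fold on that side. DAC014P22 ran between -2.52 and -1.01, DAC020G14 between -2.28 and -0.796, and DAC028P11 between -2.09 and -0.682. DAC028I11 ran between -2.07 and -0.942 and DAC034L09 between -2.1 and -1.02.

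All 20 probes passed with a limma adjusted p of at most 0.00332. Their calls were kept in every alternative in which they could be fitted except the reading of all ratios as Cy5 over Cy3. There the effect is the dye coefficient, and it passed only for DAC032I05, DAC026B13 and DAC027G15. It was 0.56, 0.74 and 0.61 for them (limma adjusted p = 0.0484, 0.0483 and 0.0483). Wide dye gaps were more common on the positive side, where 5 of 10 exceeded 1 log2 unit, against 1 of 10 on the negative side, a difference that was not tested.

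**Figure D2:**
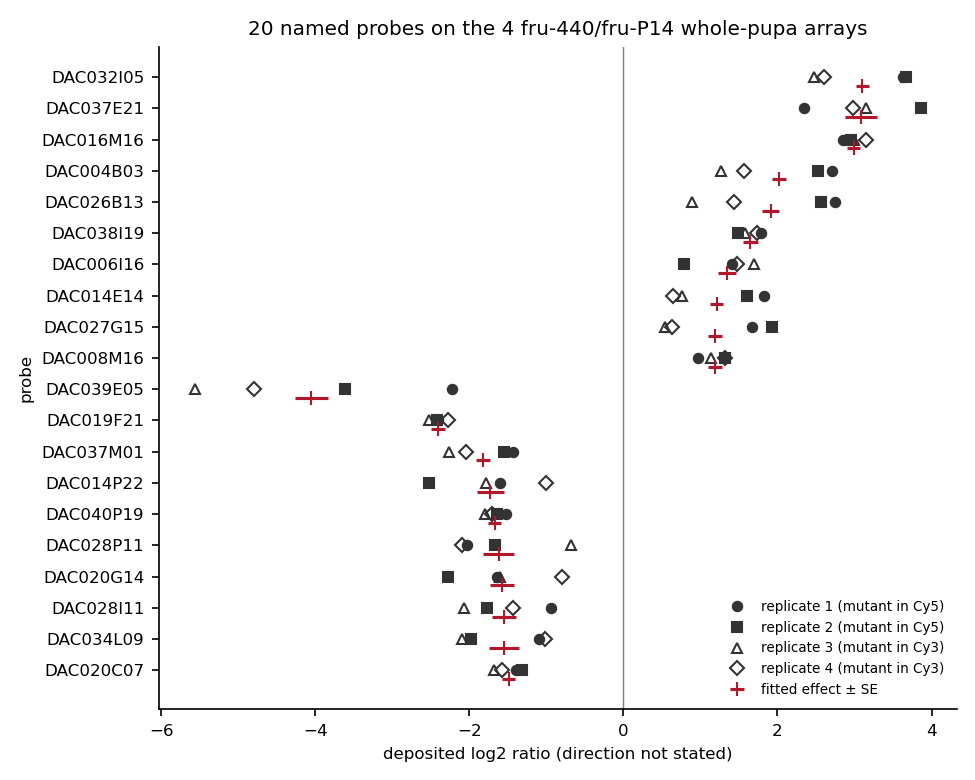
Deposited log2 ratios (x axis) of the 20 individually described probes (y axis) on each of the 4 arrays. Filled symbols are replicates 1 and 2 (mutant in Cy5), open symbols replicates 3 and 4 (mutant in Cy3), and red crosses the fitted effect ± SE. Every probe keeps to 1 side of 0. The means of the filled and open symbols lie over 1 log2 unit apart for DAC032I05, DAC004B03, DAC026B13, DAC014E14, DAC027G15 and DAC039E05.

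In all, 17 probes passed 2-fold on each of the 4 arrays, and 16 of them did so with 1 sign, 5 positive and 11 negative. The exception was DAC006H02, at -1.54 and -1.19 with the mutant in Cy5 and 1.72 and 2.11 with it in Cy3. It changed sign with the dye, so its effect was 0.28 ± 0.106 (SE, n = 4) with a limma adjusted p of 0.135. Its dye coefficient was -1.64 (limma adjusted p = 0.00129). Over all tested probes the dye coefficient passed for 25 (0.391%), the same probes as in the Cy5 over Cy3 reading. Another 7 probes had effects past 2-fold but were not called, with limma adjusted p between 0.0662 and 0.305, and 5 of these had all 4 values. Calls with 3 values reached 2.24 on the positive and -1.81 on the negative side.

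To see how far these probes move elsewhere in the series, for each probe the 4 values were set beside those on the other 23 arrays on the log2 scale, where at least 10 of those held a value. Only 4 of the 23 are of whole pupae, those of fru-w12/fru-ChaM5. The rest are CNS arrays. Those of both allele pairs and of wild-type females against males are from 48 h APF. Others are of EcR-A RNA interference driven by fru P1-GAL4. The interference arrays are from puparium formation, 48 h APF and adults, so tissue, genotype and age differ too. Of 3447 tested probes with 4 values, 26 (0.754%) had all 4 outside the whole range of the other arrays, and each of the 26 was called. The directions of those experiments are not stated, and with each of their values taken at both signs, a setting chosen after seeing the data, the count was 12 (0.348%), all of them called. The effect chose the called and named probes, so their counts here are a description. Among the 10 positive probes the 4 outside that range were DAC032I05, DAC037E21, DAC016M16 and DAC008M16, and these 4 lay outside at both signs too. DAC016M16, for example, ran from -1.23 to 1.31 on the other arrays. Among the 7 negative probes with enough arrays, 5 lay outside as deposited and 4 at both signs, including DAC019F21, whose other 12 values ran from -0.592 to 0.738. In the CNS of females against males, 16 of the 20 probes had a value, and those ran from -1.06 to 1.29. Just 1 of the 14 with 4 values there kept 1 sign.

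The second question was whether the other allele pair gave the same shifts in whole pupae. This comparison takes both experiments as turned the same way, which the labels do not state. The alleles differ together with the strain they were compared with, Canton S against w; Berlin, and with the w (white eye) mutation that both groups of the other experiment carry, so these cannot be told apart. Array handling differed as well: 3 of the 4 fru-440/fru-P14 arrays are labelled as rewashed and none of the other pair, and their slide numbers do not overlap. The part of this in the differences was not tested. In 1 fit of the 8 arrays the effect differed between the allele pairs for 1489 of 6204 probes (24.0%), with 938 (15.1%) more positive and 551 (8.88%) more negative in fru-440/fru-P14. With the fru-w12/fru-ChaM5 ratios turned round the count was 166, of which 52 were positive and 114 negative, and 35 of the 1489 kept their call and sign. Where each pair then had its own dye coefficient, also chosen after seeing the data, it was 453, of which 189 were positive and 264 negative, and 75 kept both. The lean to the positive side thus reversed with the reading. The probes called in fru-440/fru-P14 are the base for what follows, and since they enter the difference their counts are descriptive. Of the 688 that could be compared, the difference passed for 442 (64.2%). In 377 of these 442 the fru-w12/fru-ChaM5 effect had the opposite sign, which turning its ratios makes the same sign. Turned round, the difference passed for 119 of the 688 (17.3%), or for 233 (33.9%) with a dye coefficient for each pair.

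Fitted separately over the same 6204 probes, fru-440/fru-P14 gave 688 calls and fru-w12/fru-ChaM5 680. They shared 193, which is 28.1% of the first and 28.4% of the second. Thus 28.4% of the fru-w12/fru-ChaM5 calls were also called in fru-440/fru-P14, against 11.1% of all 6204 probes. The calls were therefore shared more often than that base, a difference that was not tested. As deposited, the sign was the same for 68 of the shared probes and opposite for 125. Over all probes it tested, fru-w12/fru-ChaM5 had 871 calls of 9699 (8.98%). Across the 6204 probes the effects of the pairs, as deposited, had a Pearson's r of -0.109 and a Spearman's rho of -0.245. The components that follow dye orientation had an r of 0.625, and with the ratios of 1 pair turned round this r would be negative. Probes share dyes and array design, so these values describe the arrays. The count of 1489 differing probes was 896 without replicate 1 and 948 without replicate 4.

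Of the 20 probes above, 17 could be compared and 15 differed between the pairs. The share was 24.0% over all 6204 probes compared and 64.2% over the 688 fru-440/fru-P14 calls among them. The 20 were chosen by their fru-440/fru-P14 effect, which enters the difference, so their count is a description. DAC032I05, at 2.48 to 3.67 in fru-440/fru-P14, had -0.531, -0.815, -0.627 and -0.878 in fru-w12/fru-ChaM5. The groups did not overlap, and the difference was 3.81 ± 0.205 (SE, limma adjusted p = 2.69e-06). DAC016M16 was near 0 in the other pair, at -0.143, 0.211, 0.0433 and -0.837, with a difference of 3.17 ± 0.209 (SE, limma adjusted p = 1.45e-05). DAC019F21 was also near 0 there, at 0.226, 0.0231, -0.592 and 0.738, with a difference of -2.51 ± 0.24 (SE, limma adjusted p = 0.000195). For probes near 0 in the other pair the difference hardly depends on how those ratios are turned: with them turned round DAC016M16 had 2.81 and DAC019F21 had -2.31 (limma adjusted p = 0.000489 and 0.00202).

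DAC004B03 lay on opposite sides in the pairs, at 1.27 to 2.71 in fru-440/fru-P14 and -0.998, -1.33, -1.71 and -1.48 in fru-w12/fru-ChaM5. Its difference of 3.40 ± 0.184 (SE, limma adjusted p = 2.69e-06) was 0.64 with the ratios of the other pair turned round (limma adjusted p = 0.375). With a dye coefficient for each pair as well, it was again 0.64 but passed (limma adjusted p = 0.0318). DAC037E21 likewise had -0.507, -1.47 and -1.66 on the 3 arrays of the other pair that measured it, and a difference of 4.22 ± 0.341 (SE, limma adjusted p = 0.000146). DAC040P19 had 1.01, 1.47 and 0.429 there, with a difference of -2.66 ± 0.228 (SE, limma adjusted p = 0.000189). With the ratios turned round DAC037E21 still differed, by 1.94 (limma adjusted p = 0.0304), and DAC040P19 did not pass, at -0.71 (limma adjusted p = 0.218). A dye coefficient for each pair then gave 2.05 for DAC037E21 (limma adjusted p = 0.00803) and -0.69 for DAC040P19 (limma adjusted p = 0.137).

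Both exceptions had the same sign in the pairs. DAC014E14 had 1.58, 1.28, 0.474 and 0.238 in fru-w12/fru-ChaM5, and its effects were 1.21 ± 0.0949 in fru-440/fru-P14 and 0.89 ± 0.0949 in fru-w12/fru-ChaM5 (SE). The difference of 0.32 ± 0.134 had a limma adjusted p of 0.113, which does not show that the pairs act alike. It was 0.6 and passed after scale normalization between arrays (limma adjusted p = 0.00615), and it was 2.1 with the ratios turned round (limma adjusted p = 0.0151). DAC028P11 differed by -0.81 ± 0.384 (SE, limma adjusted p = 0.149), and it ran between -1.7 and 0.0486 in fru-w12/fru-ChaM5. That result rests on single arrays: the difference passed without replicate 3 (-1.21, limma adjusted p = 0.026) and without replicate 8 (-1.15, limma adjusted p = 0.0347). Turned round it was -2.43 (limma adjusted p = 0.00732). DAC037M01 was negative in both pairs but more so in fru-440/fru-P14, at -1.82 ± 0.104 against -0.93 ± 0.104 (SE), and this difference passed (limma adjusted p = 0.00231).

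The widest differences on the negative side belonged to probes whose shift was larger in the other pair. DAC034F02 had -0.582, -0.366, -1.26 and -0.699 in fru-440/fru-P14, against 3.96, 5.52, 4.65 and 4.47 in fru-w12/fru-ChaM5. The difference was -5.38 ± 0.287 (SE, limma adjusted p = 2.69e-06), a ratio of 41.7-fold between the pairs. DAC012O21 had -0.659, -0.978, -1.52 and -1.7 in fru-440/fru-P14, against 2.49, 2.55, 1.87 and 1.68 in fru-w12/fru-ChaM5. Its difference was -3.36 ± 0.131 (SE, limma adjusted p = 4.68e-07). DAC040I03 had values on 3 fru-440/fru-P14 arrays, -1.43, -0.819 and -0.315, against 1.88, 2.38, 1.08 and 2.52 in fru-w12/fru-ChaM5. In the 8-array fit the fru-440/fru-P14 effects of DAC034F02 and DAC040I03 no longer passed (limma adjusted p = 0.054 and 0.0895). All 3 differences changed sign with the ratios of the other pair turned round.

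**Figure D3:**
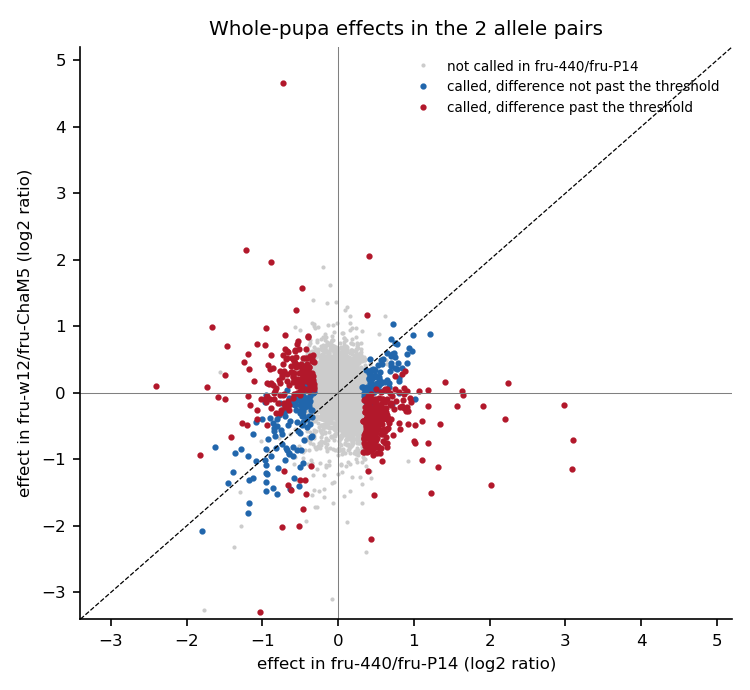
Fitted whole-pupa effects in fru-440/fru-P14 (x axis, log2 ratio) and fru-w12/fru-ChaM5 (y axis, log2 ratio) for the 6204 probes tested in both. Red points are fru-440/fru-P14 calls whose difference between the pairs passed (442), blue points the other calls compared, and the dashed line marks equal effects. The most positive fru-440/fru-P14 effects lie along or below 0 on the y axis.

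The third question was how the whole-pupa probes behaved in the CNS of the same genotype and age. The CNS arrays came from other extracts, with RNA amplified and labelled as cRNA, and the 3 arrays of fru-440/fru-P14 all had the mutant in Cy3. No label ties the sign of the CNS ratios to the sign used for whole pupae. Of the 26 positive calls past 2-fold, 20 had values on all 3 CNS arrays, and 16 of these were positive on all 3 while 1 was negative on all 3. Among all tested probes with a positive effect the share positive on all 3 was 26.2% (402 of 1532). The median of the mean CNS ratios was 0.796 for the 20 and 0.00111 for the 1532. Most of the positive calls past 2-fold that the CNS arrays measured thus had a positive deposited ratio in both tissues. Over all positive calls with 3 CNS values, 64 of 147 (43.5%) were positive on all 3, and the median was 0.283. With 1 dye orientation the CNS ratios also hold any dye component, which could not be separated there. Replicate 6 of the CNS arrays is labelled as rewashed.

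The named positive probes show this one by one. DAC026B13 had CNS ratios of 2.53, 2.02 and 0.698, DAC016M16 had 1.31, 1.06 and 0.656, and DAC004B03 had 0.928, 1.55 and 0.888. DAC032I05 had 1.01, 1.01 and 0.344, and DAC037E21 had 0.721, 0.717 and 0.522. DAC027G15 was the exception, at -0.393, -0.0617 and -0.133. The CNS values were smaller than the whole-pupa ones for the 3 largest probes, but the labelling differs and the sizes cannot be compared directly.

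Negative probes did not follow the same pattern. Of the 50 negative calls past 2-fold, 25 had values on all 3 arrays, and 5 of these were negative and 9 positive on all 3. Over all tested probes with a negative effect 29.5% were negative and 20.0% positive on all 3. Just 3 of the 10 named negative probes had all 3 values. DAC020C07 had 0.611, 0.615 and 0.273, DAC014P22 had 0.374, 0.459 and 0.278, and DAC037M01 had 0.127, 0.324 and -0.0769. DAC019F21 and DAC020G14 had no CNS value on these arrays. Over the 3498 probes with values in both tissues the effect and the mean CNS ratio had a Pearson's r of 0.16 and a Spearman's rho of 0.119.

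In the CNS of fru-w12/fru-ChaM5, where the mutant was in Cy5 on all 3 arrays, 23 of the 26 positive probes had all values, and 6 were positive and 5 negative on all 3. The share among all tested probes with a positive effect was 29.4% positive. DAC032I05, DAC026B13, DAC004B03 and DAC027G15 were the named positive probes with 3 positive values there, with lowest values of 0.661, 0.865, 0.262 and 0.348. The allele pair and the dye orientation cannot be told apart between these CNS experiments, so their difference was not tested.

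**Figure D4:**
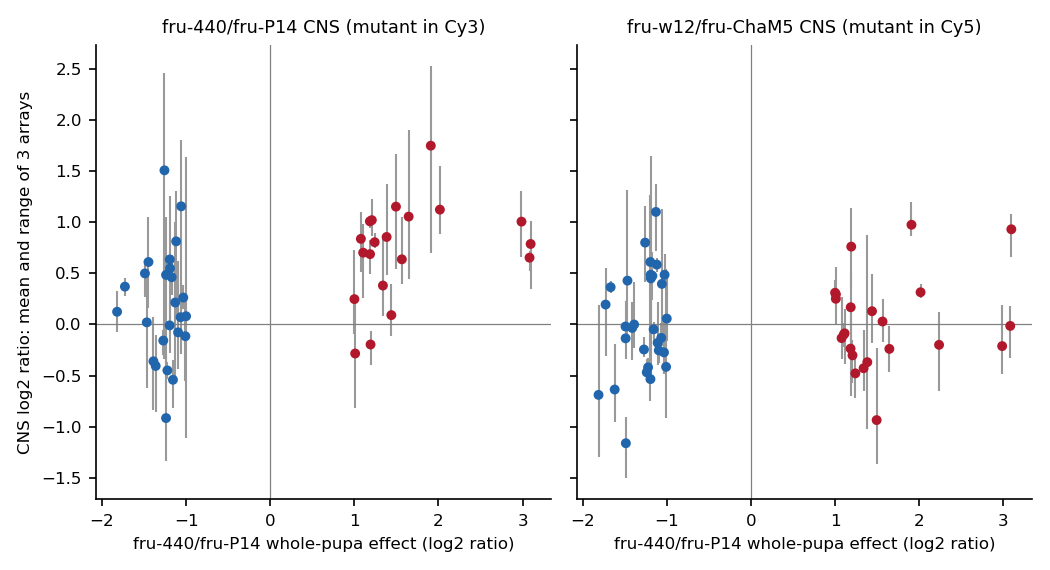
CNS log2 ratios (y axis: mean and range of 3 arrays) against the whole-pupa effect in fru-440/fru-P14 (x axis, log2 ratio) for calls past 2-fold with all 3 CNS values, in fru-440/fru-P14 (left) and fru-w12/fru-ChaM5 (right). Red points are positive and blue points negative in whole pupae. On the left most red points lie above 0 with their whole range (16 of 20); on the right 6 of 23 do.

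Since probe IDs are plate positions, the calls were also laid out by plate. The IDs run over 41 plates of 384 positions. Of these, 38 had at least 100 tested probes, and the share called ran from 5.23% on plate 9 to 17.9% on plate 34, with a median of 11.9%. Plate 1 had no tested probe, and plate 2 had 65 with none called, where the SD of the effects was 0.116 against 0.307 over all tested probes. Plate 41 had 59 tested probes, of which 3 were called. Calls past 2-fold lay on 31 plates, with the most, 7, on plate 37, which also holds DAC037E21 and DAC037M01. The 20 probes came from 16 plates, so large shifts of both signs were spread over the probe set.

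**Figure D5:**
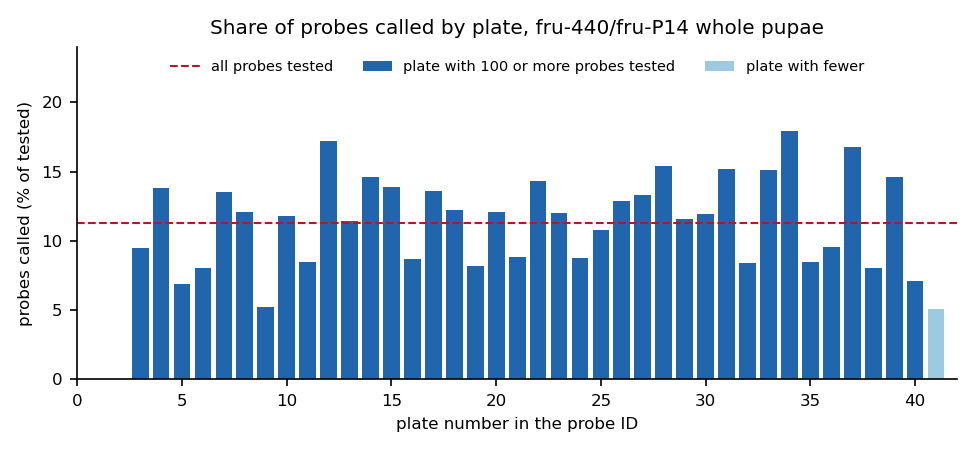
Share of tested probes called (y axis, percent) by the plate number in the probe ID (x axis) in fru-440/fru-P14 whole pupae. Dark bars are plates with at least 100 tested probes, the light bar is plate 41 with 59, and the dashed line is the share over all tested probes, 11.3%. The dark bars run from 5.23% to 17.9%; plate 1 had no tested probe and plate 2 no call.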

How the data were processed

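The deposited values are log2 ratios, 1 per probe and array. The authors made them with limma, per the submitters' processing notes; no source used here gives its version or settings. The authors' values on 3 arrays of another experiment had the spread of a score of unknown scale and were not used. Control spots (32) were left out, and no 2 arrays held identical values. Within an experiment the ratios were taken to run 1 way.

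Effects were fitted in R 4.3.3 with the limma package, version 3.58.1, by lmFit followed by eBayes, with 1 coefficient for the effect and 1 for dye orientation. Two-sided p-values were adjusted by Benjamini-Hochberg over all probes tested, and calls are at 0.05. The fit was tested on simulated ratios. Differences between allele pairs came from 1 fit of 8 arrays with a common dye coefficient. In the fit of 4 arrays, an array that held the only value of its orientation was fitted exactly.

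Named probes were the 10 of each sign with the largest effect among called probes with 4 values of 1 sign, the 3 of each sign with the smallest p (all among the former), and the 4 called probes of each sign with the largest difference between the allele pairs. The probes and rules were chosen with earlier results of these data known. Gene lists for sex determination, ecdysone response, eye pigment, immunity, detoxification, cuticle and tissue markers could not be applied, because probes are not paired with genes. Alternatives changed the dye term, the arrays fitted, the filter, the scaling, the eBayes step, the reading of the ratios and single replicates. Signal over background is unknown.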

Additional observations from a re-analysis of the deposited data

Results flagged for a closer look

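The results listed here are those for which the effect differed between the allele pairs in the 8-array fit; the whole count was 1489 probes. Differences are fru-440/fru-P14 minus fru-w12/fru-ChaM5, in log2 units of the deposited ratios, with limma adjusted p. On the positive side they were 3.81 for DAC032I05 (2.69e-06), 4.22 for DAC037E21 (0.000146), 3.17 for DAC016M16 (1.45e-05) and 3.4 for DAC004B03 (2.69e-06). DAC026B13 had 2.11 (0.000685), DAC038I19 1.67 (0.000263), DAC006I16 1.81 (0.000263), DAC027G15 1.95 (0.000753) and DAC008M16 1.38 (0.000193).

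On the negative side DAC034F02 had -5.38 (2.69e-06), DAC012O21 -3.36 (4.68e-07), DAC040I03 -2.84 (0.000978) and DAC040P19 -2.66 (0.000189). DAC019F21 had -2.51 (0.000195), DAC014P22 -1.81 (0.00436), DAC020C07 -1.76 (1.78e-05), DAC020G14 -1.51 (0.0022) and DAC037M01 -0.89 (0.00231).

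Of these 18 probes, 11 kept the call and the sign with the fru-w12/fru-ChaM5 ratios turned round, 4 lost the call and 3 changed sign. With 1 dye coefficient per allele pair as well, 13 kept both, 2 lost the call and 3 changed sign. The 22 named probes with 4 values were chosen from calls made on these same values, so a check of single arrays is only a description. Among them none had a lowest or highest array whose gap to the next exceeded Dixon's critical share of the range, 0.829. The nearest was DAC028P11, at 0.704, whose replicate 3 read -0.682 against -2.09 to -1.67 on the others; without that array its effect was -1.97 (limma adjusted p = 9.6e-05).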

How the results depend on the processing

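Of the 23 named probes, 21 kept their call in every alternative in which they could be fitted other than the Cy5 over Cy3 reading; DAC034F02 lost it in the 8-array fit, and DAC040I03 there and without the dye coefficient (limma adjusted p = 0.0782). The 725 calls became 278 without the dye coefficient and 25 with the ratios read as Cy5 over Cy3, and leaving out 1 replicate gave 299 to 578. With the other settings the count lay between 490 and 763. The 76 calls past 2-fold became 48 among probes with values on all 4 arrays, where fewer probes were tested, 8 in the Cy5 over Cy3 reading, and 48 to 78 with a replicate left out. The 1489 differences between allele pairs became 166 with the fru-w12/fru-ChaM5 ratios turned round, 453 with 1 dye coefficient per pair as well (chosen after seeing the data, since turning a ratio turns its dye component), and 896 to 1297 with a replicate left out. Fits without a replicate tested fewer probes; otherwise the cause was not tested.

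The effect in the Cy5 over Cy3 reading is the dye coefficient of the main fit. It had the other sign for DAC016M16 (-0.08), DAC038I19 (-0.01), DAC006I16 (-0.24), DAC008M16 (-0.04), DAC039E05 (1.13), DAC037M01 (0.33), DAC040P19 (0.08), DAC028I11 (0.2), DAC034L09 (0.01), DAC020C07 (0.14), DAC034F02 (0.25) and DAC012O21 (0.39). The differences changed sign with the other pair's ratios turned round for DAC034F02 (3.92), DAC012O21 (0.94) and DAC040I03 (1.02, and 0.96 with 1 dye coefficient per pair). Over all settings 246 of 269 effects and 249 of 268 differences of named probes kept their sign and their side of the threshold. Probes with 1 value in each orientation were tested on the prior spread only. No paired analysis was possible because each value already is the ratio of a mutant and a wild-type sample on the same array.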
